A study of Drosophila melanogaster with 4 samples.

Results

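The comparison described here sets the transcripts of Drosophila melanogaster S2 cells after 60 min of radicicol against those after 30 min of the same treatment. It uses 2 of the 4 libraries of a time course, 1 for each time, and both came from cells that received radicicol at 40 µM. The remaining 2 libraries, radicicol for 15 min and a solvent control with DMSO labelled 0 min, were used only to place the late step within the time course. S2 cells are an established line with haemocyte character, grown from embryos, and nothing in the labels says whether the libraries came from separate cultures. Polyadenylated RNA was sequenced, and the deposited values are read counts per gene. Genes were measured where the mean count of the 30 and 60 min libraries was at least 20, which kept 7982 of 14869 gene identifiers.

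Hsp90 is an abundant chaperone that folds and keeps active many kinases, receptors and transcription factors, and radicicol occupies its ATP pocket. When Hsp90 and its partner chaperones are engaged elsewhere or inhibited, heat shock factor (HSF) forms active trimers and switches on the heat shock genes, whose promoters carry paused RNA polymerase II and can respond within minutes. Long transcription units take longer to be transcribed and processed than short ones, so gene length is a property to keep in view in any early time course.

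The gene counts summed to 30859475 at 30 min and 31028233 at 60 min, and levels below are in CPM, which scales each count by its library's sum. With 1 library per time there is no replicate error, no p-value can be given, and every interval covers counting error alone. A gene was called higher or lower at 60 min where the log2 fold was at least 1 in size and its exact 95% counting interval (Clopper-Pearson) lay on that side of 0. At the edge of the count minimum, the 17 genes with a mean of 20 counts had log2 folds from -1.06 to 2.23, and the 21 left out with a mean of 19.5 had log2 folds from -1.74 to 3.12. All 12 haemocyte markers were found, with a summed level of 10851 CPM at 30 min and 14287 CPM at 60 min. The largest differences were those of Pxn (3979 and 5158 CPM), Col4a1 (2627 and 3647 CPM) and vkg (1613 and 2459 CPM). NimC1 (79.6 and 75.2 CPM) and He (452 and 414 CPM) were lower. The 4 nervous system markers summed to 5.22 and 19.2 CPM, and most of this was elav, at 3.99 and 15.99 CPM. Of the others, brp (0.843 and 2.61 CPM) and repo (0.292 and 0.516 CPM) were higher and nSyb was lower, on 3 and 2 counts. The 2 muscle markers found summed to 25.0 and 33.9 CPM. Act88F carried that sum, at 23.8 and 32.9 CPM, while Mlc2 was lower, at 1.26 and 1.03 CPM. The 2 germ line markers found summed to 1.69 and 3.38 CPM. The 4 fat body markers summed to 0.130 and 0.129 CPM, with 1 of them, Yp1, at 0 in both libraries. In bulk RNA, a change in the number of cells and a change in RNA per cell cannot be told apart.

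From 30 to 60 min the step was lopsided towards higher levels. At 60 min, 765 of the 7982 genes were called higher, 9.58% of those measured, and 104 were called lower, 1.3%. The median log2 fold over all genes was -0.06, with quartiles of -0.42 and 0.43, and 3692 genes (46.3%) had a positive fold. There were 118 genes higher by at least 4-fold and 0 genes lower by as much. In CPM the 3692 genes with a positive fold gained 165504 in sum, and the 4290 others had a summed difference of -165604, since each library is scaled to the same total. Over the same genes and by the same rule, 201 were higher and 59 lower from DMSO to 15 min, and 67 higher and 30 lower from 15 to 30 min. Among the 7202 measured genes annotated as protein coding, 603 were higher (8.37%) and 95 lower (1.32%). Consecutive steps share a library, so these counts stand side by side only.

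The genes that were higher at 60 min were long, and the genes that were lower were short. Exon length here counts every base in an exon of any annotated transcript, so it can exceed the length of each single transcript. The median exon length was 5515.5 bases among genes called higher, 1149 bases among genes called lower and 2034 bases over all genes with an annotated length, and the median distance from gene start to gene end was 12434 and 1370 bases in the higher and lower genes. When the 7315 genes with an exon length were put in 20 bins of rising length, the shortest bin (30 to 682 bases, 368 genes) had a median log2 fold of -0.63, with 3 genes higher and 16 lower. The longest bin (7097 to 58996 bases, 366 genes) had a median of 1.0, with 183 genes higher and 1 lower. Across genes, which are not independent replicates and here all come from the same 2 libraries, the Spearman correlation of fold with exon length was 0.69 and with mean count 0.13.

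Both exon length and the length of the transcription unit moved with the fold. Genes were split into 4 equal groups by exon length, and each of these again by span. Within the group of longest exons the median log2 fold went from 0.29 in the genes of shortest span to 0.96 in those of longest span. The median exon length rose as well between these, from 3886 to 6945 bases. With the order of the splits exchanged, the median log2 fold went from 0.15 to 0.96 with exon length within the group of longest span. There the median span rose from 8234 to 21526 bases. The splits therefore do not hold the other length constant, and do not separate the part of each. Among genes made of a single exon block, the median log2 fold was -0.51 up to 1000 exonic bases (238 genes), -0.36 from 1001 to 2000 bases (387 genes), 0.02 from 2001 to 4000 bases (144 genes), 0.77 from 4001 to 8000 bases (22 genes) and 0.43 above that (4 genes). Genes with several blocks had medians of -0.57, -0.31, 0.09, 0.63 and 1.04 in the same classes. Between the shortest and longest bins the median fold differed by 0.80 on the log2 scale from DMSO to 15 min, by 0.11 from 15 to 30 min and by 1.63 from 30 to 60 min. Of the reads, 44.1% in DMSO, 18.2% at 15 min, 21.5% at 30 min and 17.8% at 60 min were not aligned. The part of the alignment rate in the length relation was not tested, and with 1 library per time, elapsed time and library cannot be told apart.

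**Figure D1:**
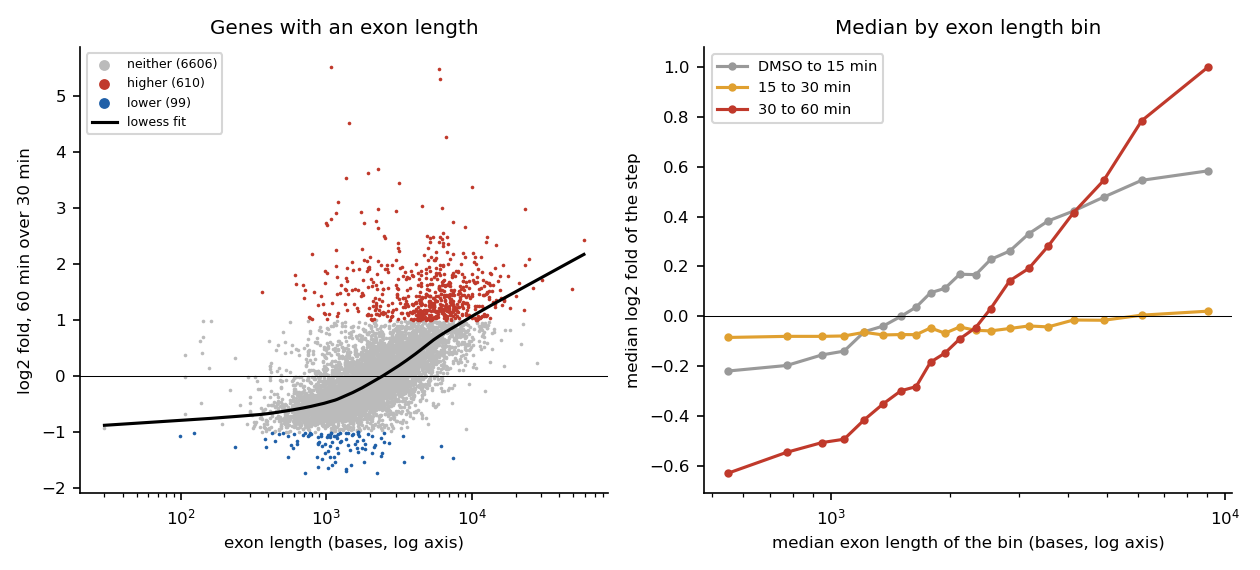
Left, log2 fold from 30 to 60 min of radicicol against exon length in bases (log axis), 1 point per gene, coloured by call and with the lowess trend; right, the median log2 fold of each of 20 exon length bins for the 3 consecutive steps. At right the line for 30 to 60 min goes from -0.63 in the shortest bin to 1.0 in the longest, while that for 15 to 30 min stays between -0.09 and 0.02 at its ends.

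Because of this relation, each gene is given below with its fold and with a length-corrected fold, which is the log2 fold minus the trend (a lowess curve) of genes of the same exon length. After correction 307 of 7315 genes were higher (4.2%) and 69 lower (0.943%), against 610 (8.34%) and 99 (1.35%) of the same genes before it. Of the 610, 232 were still called higher and 378 were not, while 75 others were called higher only after correction. Of the 99 lower genes, 31 were still called lower, and 38 others were called lower only after correction. The corrected median over all genes was -0.01, and the SD of the folds across genes was 0.665 before and 0.504 after correction. List counts below stand beside the shares over all genes. Before correction these were 9.58% higher and 1.3% lower, and after it 4.2% and 0.943%.

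The heat shock genes were higher at 60 min than at 30 min to uneven degrees: several small heat shock proteins and the BAG co-chaperone starvin were more than 2-fold higher, while the Hsp70 copies were 1.20-fold higher. Of 16 measured genes that depend on HSF, 6 were called higher and 0 lower, against 9.58% and 1.3% of all genes. The median log2 fold was 0.51 before and 0.50 after length correction, and 15 of 16 corrected folds were positive. The list includes the nearly identical Hsp70 copies, so its median and counts do not rest on 16 separate signals. The list supplied 7.75% of all the CPM gained between 30 and 60 min. In sum its members stood at 3152 CPM in DMSO, 30235 CPM at 30 min and 43064 CPM at 60 min.

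The 6 Hsp70 copies (Hsp70Aa, Hsp70Ab, Hsp70Ba, Hsp70Bb, Hsp70Bbb and Hsp70Bc), which encode the main stress-induced chaperone and are nearly identical, were summed because reads cannot be divided among them with certainty. Their sum was 25.4 CPM in DMSO, 7227 CPM at 15 min, 15430 CPM at 30 min and 18448 CPM at 60 min. The late step was 1.20-fold, a log2 fold of 0.26 (0.25 to 0.26), and made up 16.4% of the gain between DMSO and 60 min. Hsp68, a further inducible Hsp70 family member, stood at 8.51, 436, 1250 and 1700 CPM in the same order. Its log2 fold for the late step was 0.44 (0.42 to 0.46), and 26.6% of its gain came after 30 min.

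For the small heat shock proteins, which hold unfolded proteins in a form that can be refolded, most of the gain came after 30 min. Hsp26 stood at 38.5, 402, 1761 and 3572 CPM in DMSO and at 15, 30 and 60 min, a late log2 fold of 1.02 (1.01 to 1.03) and 51.2% of its gain. When library sizes left out the heat shock list and the 50 most abundant genes, Hsp26 was at 0.95 and no longer past the rule. Hsp27 stood at 13.1, 89.9, 432 and 1002 CPM, a late fold of 1.21 (1.18 to 1.24) and 57.6% of its gain. Hsp23 stood at 29.8, 120, 662 and 1591 CPM, a late fold of 1.27 (1.24 to 1.29) and 59.5% of its gain. Each of these short genes was further from genes of its own length than from 0, with corrected log2 folds of 1.49, 1.47 and 1.77. Starvin (stv), which couples Hsp70 to the release of its clients, stood at 10.6, 42.2, 122 and 291 CPM, a late log2 fold of 1.25 (1.20 to 1.31) that was 0.95 after correction and then no longer past the rule.

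The rarely detected members of the small heat shock cluster had larger folds on few reads. Hsp67Ba had 0, 3, 13 and 100 counts in DMSO and at 15, 30 and 60 min, a late log2 fold of 2.94 (2.10 to 3.89), and ranked 1 of 365 genes of similar length. Of its exonic bases, 75.9% overlap another annotated gene, so its reads could belong in part to a neighbour. Hsp67Bc had 0, 2, 13 and 48 counts and a late log2 fold of 1.88 (0.97 to 2.89). Hsp22 had 0 counts in all 4 libraries. Whether its reads were absent or set aside as ambiguous was not tested.

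Hsp83, the fly Hsp90 and the target of the drug, had the largest gain in CPM, a scale that takes no account of gene length. It stood at 2895, 6477, 9955 and 15535 CPM, a late log2 fold of 0.64 (0.64 to 0.65), or 0.50 after correction, and 44.1% of its gain came after 30 min. Hsf, the gene for the heat shock factor itself, stood at 50.1, 64.3, 70.4 and 101 CPM with a late log2 fold of 0.53 (0.45 to 0.61). Both were higher at 60 min and neither reached the 2-fold rule.

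Among chaperones that are present without stress no gene reached the 2-fold rule, where 9.58% of all genes were called higher and 1.3% lower. At these shares a list of 24 genes would hold few calls. Of 24 constitutive chaperones and Hsp90 co-chaperones, 0 were called in either direction, and the median log2 fold was 0.17 before and 0.23 after correction, with 21 of 24 corrected folds positive. Hsc70-5, the mitochondrial Hsp70, stood at 578 CPM at 30 min and 826 CPM at 60 min, a log2 fold of 0.51 (0.49 to 0.54). STUB1, the ubiquitin ligase that acts on chaperone clients, stood at 47.9 and 30.5 CPM, a log2 fold of -0.65 (-0.77 to -0.53).

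In the endoplasmic reticulum the main chaperones were also higher, by less than 2-fold. Hsc70-3, the fly BiP, stood at 1864 CPM at 30 min and 3611 CPM at 60 min, with a log2 fold of 0.95 (0.94 to 0.97). Gp93, the Hsp90 of this compartment, stood at 1221 and 1763 CPM, with a log2 fold of 0.53 (0.51 to 0.55). Of the 19 genes of the ER stress list only PEK, the kinase that phosphorylates eIF2 alpha, was called higher, at 187 and 408 CPM, with a log2 fold of 1.13 that was 0.58 after correction. The list had a median of 0.27 before and 0.21 after correction, with 17 of 19 corrected folds positive.

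Among genes of protein turnover, the polyubiquitin gene stood apart from the proteasome. Ubi-p63E, which encodes a chain of ubiquitin units, stood at 481 CPM in DMSO, 657 CPM at 15 min, 1021 CPM at 30 min and 2997 CPM at 60 min. Its late log2 fold was 1.55 (1.54 to 1.57), or 1.37 after correction, and it was the 11th highest of 366 genes of similar length. Of 31 proteasome subunits 0 were called, and their median log2 fold was -0.35 before and 0.01 after correction. Among the 20 autophagy and ubiquitin genes Ubi-p63E was the only one called. Beside the 9.58% of all genes called higher before correction and 4.2% after it, 1 call among 20 genes is not unusual.

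The JNK pathway held several genes well above others of their length. Of its 19 measured genes 7 were called higher and 0 lower, with a median log2 fold of 0.69, and 4 were still called after correction, with a corrected median of 0.42 and 14 of 19 corrected folds positive. The 4 were Ets21C, Mmp1, puc and Traf4. With the trend in gene span removed in place of exon length, puc (0.72) and Traf4 (0.60) were no longer called. Against these counts, 9.58% of all genes were called higher before correction and 4.2% after it.

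Ets21C, an ETS transcription factor downstream of JNK, stood at 2.66, 4.82, 15.5 and 86.7 CPM in DMSO and at 15, 30 and 60 min. Its late log2 fold was 2.48 (2.34 to 2.62), or 1.84 after correction, with 28.3% of its exonic bases shared with another gene. Mmp1, a secreted matrix metalloproteinase, stood at 57.6, 88.3, 142 and 510 CPM, with a late log2 fold of 1.85 (1.80 to 1.89), or 1.30 after correction. The phosphatase puckered (puc), a target of JNK signalling that restrains it, stood at 57.8, 88.1, 186 and 487 CPM, with a late log2 fold of 1.39 (1.34 to 1.43), or 1.19 after correction. In each of these 3 genes the 60 min library was the highest of the 4 and the DMSO library the lowest. The AP-1 subunits themselves were not called: Jra (Jun) had a log2 fold of 0.69 and kay (Fos) of 0.77, and after correction these were 0.93 and -0.13.

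Single ligands and regulators of other receptor pathways were called higher, where 9.58% of all genes were called higher before correction and 4.2% after it. Of 11 JAK/STAT genes 2 were called higher and 0 lower, both before and after correction, and both were ligands, upd2 and upd3. The ligand upd3 stood at 2.09, 4.26, 6.71 and 23.8 CPM, a late log2 fold of 1.83 (1.61 to 2.06), or 1.89 after correction, and ranked 2 of 366 genes of its length. The counts of upd2 were 58 at 30 min and 221 at 60 min, a log2 fold of 1.92 (1.5 to 2.37), or 2.05 after correction. The whole list had a median of 0.51 before and 0.24 after correction.

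In the EGFR and Ras/MAPK list, 4 of 20 genes were called higher and 0 lower, and 3 after correction. Aop, an ETS repressor of the pathway, had a log2 fold of 1.30 that was 0.65 after correction. Among the 3 were Star (S), which carries the activating ligand towards its release, and kek1, a feedback inhibitor of the receptor. The level of kek1 was 26.9, 41, 53.3 and 177 CPM over the 4 libraries, a late log2 fold of 1.73 (1.65 to 1.81), and that of S was 10, 17.5, 19.7 and 61.3 CPM, a late log2 fold of 1.64 (1.51 to 1.77). Both had corrected log2 folds of 1.03, close to the threshold: S was at 0.83 with gene span removed and kek1 at 0.94 against its bin's median, and neither was then called. The list's median was 0.48 before and 0.09 after correction, and -0.16 with gene span removed. In the Notch list 1 of 12 genes was called higher, a share below that of all genes: the ADAM protease kuz that cleaves the receptor, at 54.1 CPM at 30 min and 231 CPM at 60 min, a log2 fold of 2.10 (2.02 to 2.17), or 1.26 after correction. After correction E(spl)mgamma-HLH, a Notch target, was called as well, at 1.05, and the list had medians of 0.47 and 0.35. With gene span removed instead, kuz was at 0.997 and no longer called, and the list's median was 0.00.

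Several restraints of growth signalling were higher. ImpL2, a secreted protein that binds insulin-like peptides, stood at 55.0, 112, 164 and 488 CPM, a late log2 fold of 1.58 (1.53 to 1.62), or 1.51 after correction, with 61.9% of its exonic bases shared with another gene. The TOR inhibitor scyl stood at 17.3, 33.7, 40.9 and 137 CPM, a late log2 fold of 1.74 (1.65 to 1.83), or 1.56 after correction. Its paralog chrb had a log2 fold of 1.57, or 0.86 after correction, no longer past the rule. Of 18 genes of the insulin, TOR and FOXO list 5 were called higher before correction and 2 after it, ImpL2 and scyl, with medians of 0.58 and 0.17. Over all genes 9.58% were called higher before correction and 4.2% after it. Mnt, the repressor that opposes Myc, stood at 1.10, 2.52, 1.78 and 14.7 CPM, a late log2 fold of 3.04 (2.64 to 3.47), or 2.55 after correction, the highest of 365 genes of its length. In the list that holds Mnt, ribosome biogenesis and Myc, the other 20 genes were not called and the median was -0.24.

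The medians of the ecdysone and clock lists were much smaller among genes of the same length. The ecdysone cascade had the highest median log2 fold of the lists, 1.30, with 7 of 13 genes called higher against 9.58% of all genes. Yet its genes were long, the trend at their lengths had a median of 0.71, and the corrected median was 0.28. After correction 2 were called higher, ImpL2 and the repressor vri, and Eip75B was called lower, with a log2 fold of 0.26 before and -1.0 after correction, but not with gene span removed (-0.90). The repressor vri is also a clock gene, and stood at 5.01, 10.3, 22.4 and 101 CPM, a late log2 fold of 2.17 (2.05 to 2.29), or 1.64 after correction. Its companion in the clock, the repressor cwo, stood at 13.8, 25.2, 37.7 and 146 CPM, a late log2 fold of 1.95 (1.86 to 2.05), or 1.36 after correction. The 8 clock genes as a list had medians of 0.42 before and 0.00 after correction, and 0.16 with gene span removed.

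**Figure D2:**
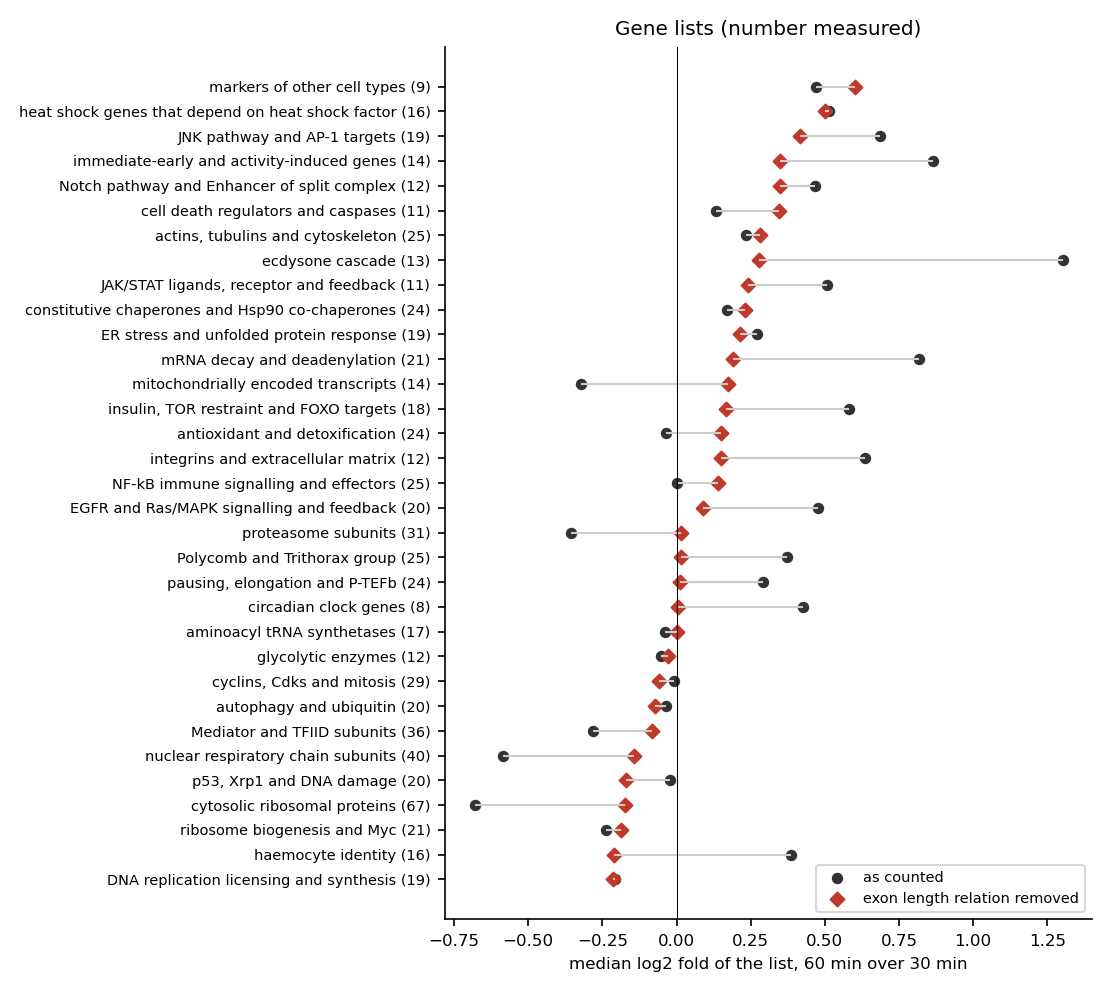
Median log2 fold from 30 to 60 min for each gene list, as counted (circles) and with the exon length relation removed (diamonds), with the number of measured genes in brackets. The ecdysone list moves from 1.30 to 0.28 and the ribosomal proteins from -0.68 to -0.17, while the heat shock list stays at 0.51 and 0.50.

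Several genes that act on messenger RNA after transcription were higher. Of 21 genes of mRNA decay and deadenylation 8 were called higher and 0 lower, with a median log2 fold of 0.82, and 3 were called after correction, with a median of 0.19, against 9.58% and 4.2% of all genes. These genes are long, and the trend at their lengths had a median of 0.58. The decapping enzyme DCP2 stood at 5.95, 16.8, 18.6 and 98.0 CPM, a late log2 fold of 2.40 (2.27 to 2.53), or 1.68 after correction. The translational repressor brat stood at 19.3, 42.9, 55.1 and 308 CPM, a late log2 fold of 2.48 (2.41 to 2.56), or 1.25 after correction. Tis11, a zinc finger protein that binds AU-rich elements and speeds decay, stood at 10.7, 21.1, 20.8 and 87.9 CPM, a late log2 fold of 2.08 (1.95 to 2.20), or 1.5 after correction, with 41.1% of its exonic bases shared with another gene. DCP2 and Tis11 had nearly the same level at 15 and 30 min, and in all 3 genes the 60 min library stood well above the others. Not1, the scaffold of the deadenylase complex, had a log2 fold of 1.76 that was 0.64 after correction.

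Among regulators of polymerase release and of chromatin, few genes were called after correction. CycT, the cyclin of the elongation kinase P-TEFb, stood at 9.97, 21.9, 21.7 and 85.0 CPM, a late log2 fold of 1.97 (1.85 to 2.09), or 1.21 after correction. Of the 24 genes of the pausing and elongation list 4 were called higher, CycT, fs(1)h, Su(Tpl) and lilli, against 9.58% of all genes. After correction CycT alone was higher, against 4.2% of all genes, while Trl, the GAGA factor, was lower at -1.01. The log2 fold of Trl was -0.26 before correction and -0.84 with gene span removed, which is not past the rule, and 77.8% of its exonic bases are shared with another gene. Psc, a core subunit of Polycomb repressive complex 1, stood at 12.1, 17.1, 44.2 and 230 CPM, a late log2 fold of 2.38 (2.30 to 2.47), or 1.62 after correction. It was 1 of 3 genes called higher in the Polycomb and Trithorax list of 25, and the only one called higher after correction: ph-d was then at 0.73 and trx, a very long gene, at 0.03. The corrected median was 0.01 for both lists.

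The genes with the highest folds were of mixed function. CG11634, an uncharacterised gene, had the highest fold under the naming rule and stood at 0.574, 1.08, 1.36 and 16.8 CPM in DMSO and at 15, 30 and 60 min, a late log2 fold of 3.62 (3.17 to 4.11). Larp4B, a La-related RNA-binding protein, stood at 3.24, 5.59, 5.80 and 60.5 CPM, a late log2 fold of 3.38 (3.16 to 3.61). Both were the highest of their length bin, and both had similar levels at 15 and 30 min. After correction CG11634 was at 3.77 and Larp4B, a gene with 10013 exonic bases, at 2.31.

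The others of the top 12 were Mnt, l(3)L1231, mei-P26, Nepl14, CG30281, CG13917, shg, CG32512, pigs and Ets21C, with log2 folds between 2.48 and 3.04. E-cadherin (shg), the adhesion receptor of epithelia, stood at 2.61, 6.19, 7.42 and 43.5 CPM, a late log2 fold of 2.55 (2.35 to 2.76), or 1.78 after correction. The germ line TRIM-NHL protein mei-P26, of the same family as brat, stood at 2.35, 4.02, 3.47 and 27.6 CPM, a late log2 fold of 2.99 (2.70 to 3.29). Its exons span 23228 bases, a length shared by so few genes that the correction is thin, and it was at 1.39 by the trend and 1.99 against its bin's median. All 12 were still past the rule after correction. Those named only for their corrected fold were CG18171, the ammonium transporter Amt, CG31798, Balat, CG30357, Adgf-A2 and Fa2h besides upd2, with corrected log2 folds between 2.03 and 2.48. Balat shares 98.5% of its exonic bases with another gene, so its value is uncertain.

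**Figure D3:**
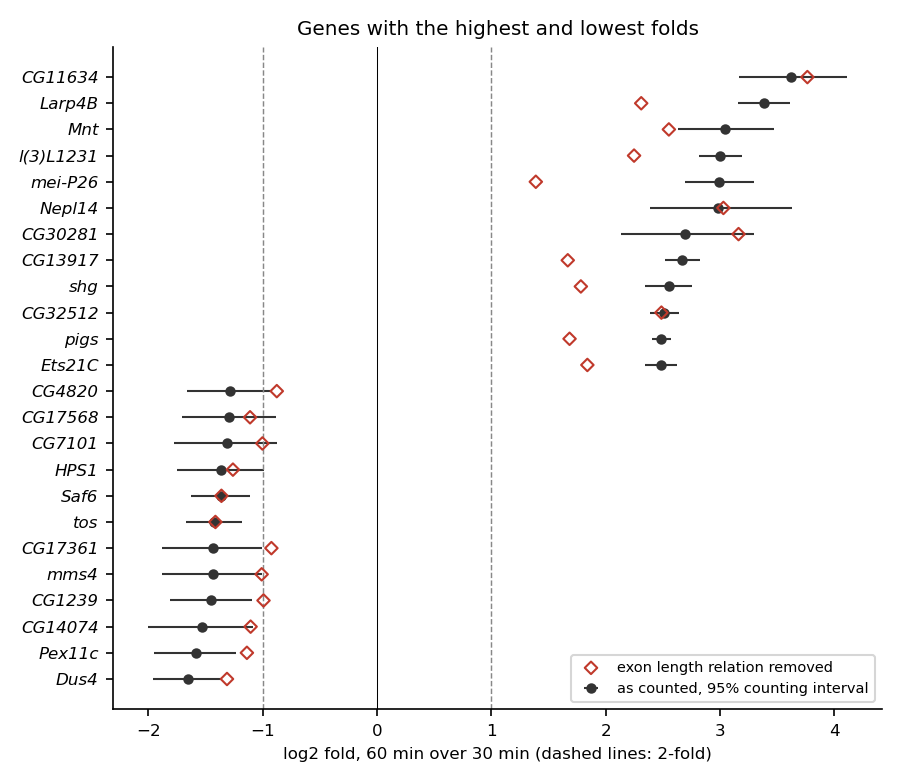
Log2 fold from 30 to 60 min of the 12 genes with the highest and the 12 with the lowest folds under the naming rule (circles, bars are exact 95% counting intervals) and the length-corrected fold of each (diamonds). CG11634 leads at 3.62 and Dus4 is lowest at -1.65.

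**Figure D4:**
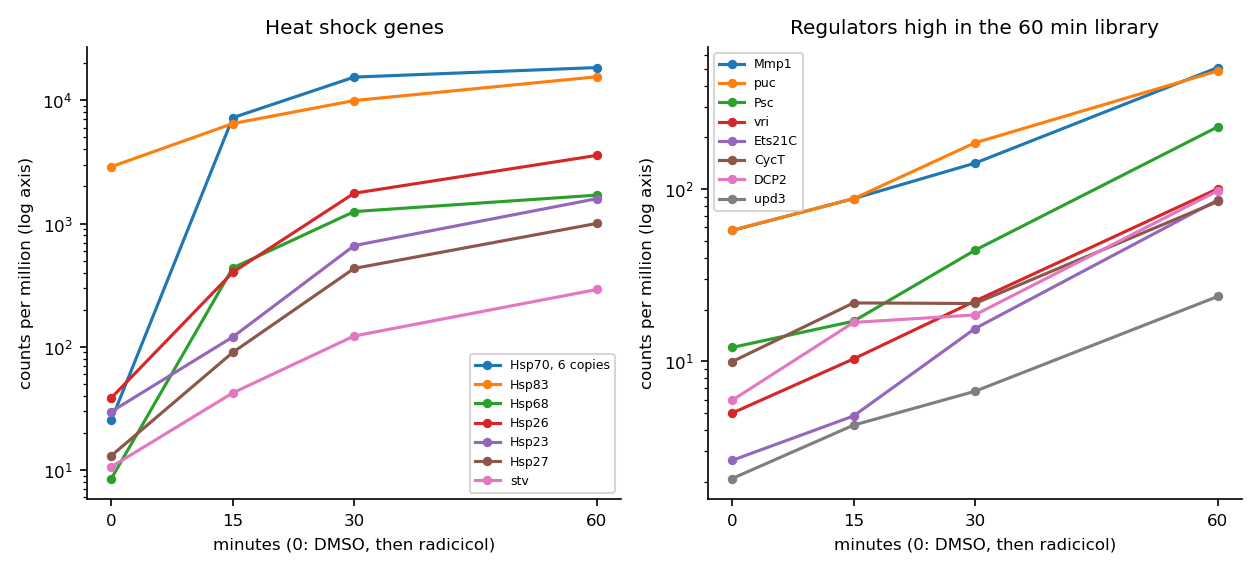
CPM (log axis) against minutes, with DMSO at 0, for heat shock genes (left) and regulators high at 60 min (right), with 1 library per point and no error bars. Hsp70 nears its 60 min level of 18448 CPM by 30 min, at 15430 CPM, while Ets21C goes from 15.5 to 86.7 CPM between 30 and 60 min.

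In the cytoskeleton and at the cell surface a few genes were called. The 25 cytoskeleton genes had medians of 0.23 and 0.28 before and after correction, with 19 of 25 corrected folds positive. Of these genes 5 were called higher, and 3 after correction: Rac2, Cdc42 and sn. Rac2, a small GTPase of actin control, stood at 37, 61.7, 85.1 and 217 CPM, a log2 fold of 1.35 (1.28 to 1.41) that was also 1.35 after correction. The fascin gene sn was detected at 0.551 and 1.35 CPM, and was not called with gene span removed (0.54). Of 12 integrin and matrix genes 4 were called higher and 1, the integrin alpha chain ItgaPS4, after correction, with medians of 0.63 and 0.15. The counts of both lists stand beside 9.58% of all genes called higher before correction and 4.2% after it. Beside the second share, 1 call among 12 genes is not unusual. LanA, a laminin chain, was among the 10 largest gains, at 937 CPM at 30 min and 2229 CPM at 60 min. Its log2 fold of 1.25 (1.23 to 1.27) was 0.08 after correction.

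Identity genes of haemocytes were not called. Of 16, 0 were past the rule in either direction, with a median log2 fold of 0.39 before and -0.21 after correction, and 3 corrected folds were positive. Over all genes 9.58% were called higher and 1.3% lower, so few calls would be found in a list this short. Among markers of other cell types, 3 of 9 were called higher, elav, brp and osk, with a median of 0.47 before and 0.60 after correction. The neuronal gene elav stood at 3.99 CPM at 30 min and 16 CPM at 60 min, a log2 fold of 2.0 that was 0.89 after correction, with 34.2% of its exonic bases shared with another gene. Osk stood at 0.94 and 2.13 CPM, with 84.1% shared. The part of these markers in the other results was not tested.

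In the lists for DNA damage, cell death, immunity and oxidative stress few genes were called. Before correction 9.58% of all genes were called higher and 1.3% lower, and after it 4.2% and 0.943%. At these shares lists of such sizes would hold few calls. Xrp1, a bZIP factor of the p53 and DNA damage list, was the only one of 20 called higher, at 838 and 1856 CPM, a log2 fold of 1.15 that was 0.60 after correction. The list's median was -0.02 before and -0.17 after correction. Of 11 cell death genes 0 were called, but 10 corrected folds were positive, with a median of 0.35: the caspase Strica stood at 61.1 and 121 CPM, a log2 fold of 0.99 (0.91 to 1.07), and the executioner caspase Drice at 93.7 and 144 CPM, a log2 fold of 0.62 (0.55 to 0.68). The death inducer rpr had a log2 fold of 0.00. Among 25 NF-kB genes, the transcription factors dl and Dif were called higher at 1.41 and 1.14, not so after correction. The recognition protein PGRP-SD was called lower at -1.72 (-2.84 to -0.71), on 36 and 11 counts. The inhibitor pirk was called higher after correction, at 1.13, on 17 and 33 counts, and the list had medians of 0.00 and 0.14. Among 24 antioxidant genes Gclc and Cyp6a8 were called higher, and after correction Cyp6a8 and GstD2, with medians of -0.04 and 0.15. Cyp6a8 had only 12 counts at 30 min and 33 at 60 min.

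On the lower side, the largest losses in CPM all belonged to ribosomal proteins. The 67 measured cytosolic ribosomal protein genes together stood at 210672 CPM at 30 min and 137356 CPM at 60 min. Each of the 67 had a negative log2 fold, from -0.90 to -0.34 with a median of -0.68, and 0 of them reached the 2-fold rule. They are short genes, the trend at their lengths had a median of -0.49, and after correction the list's median was -0.17 with 2 folds positive. RpL5 differed from the others of the 10 largest losses: it stood at 15286, 14725, 13842 and 10621 CPM, a log2 fold of -0.38 that became -0.72 after correction, while the other 9 lay between -0.28 and 0.02 after correction. The annotated transcripts of RpL5 together cover 3835 exonic bases, where the trend was 0.34, so its corrected fold rests in part on that length.

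**Figure D5:**
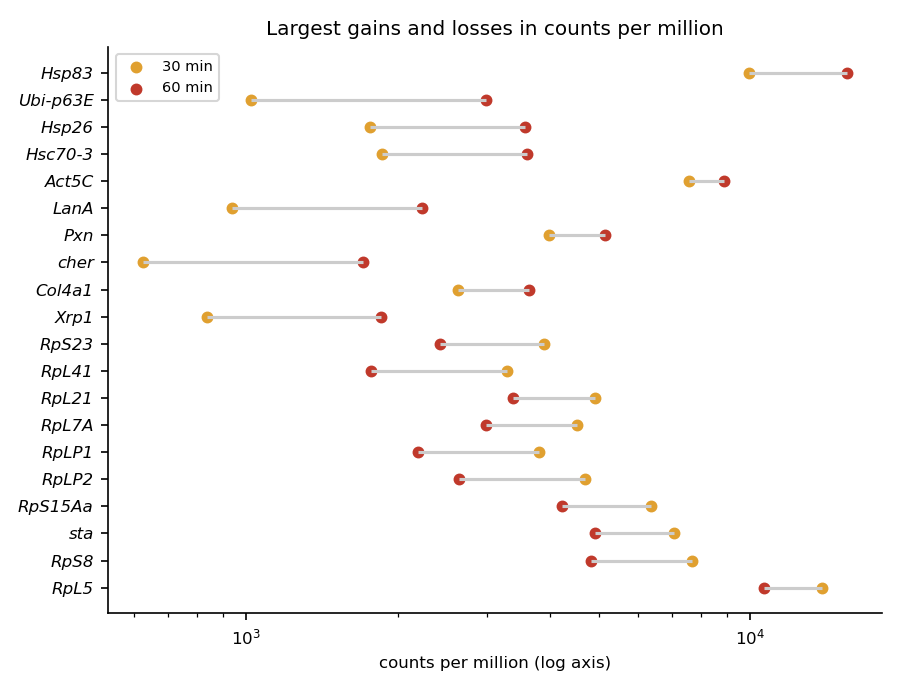
Levels in CPM (log axis) at 30 min and 60 min of the 10 genes with the largest gains and the 10 with the largest losses in CPM, 1 row per gene and 1 library per time. Hsp83 leads the gains, from 9955 to 15535 CPM, and all 10 losses are ribosomal protein genes, led by RpL5.

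Other lists of short genes had the same sign. The 40 nuclear subunits of the respiratory chain had a median log2 fold of -0.58 before and -0.14 after correction, with 0 called and 4 corrected folds positive. Among 14 mitochondrially encoded transcripts the median was -0.32 before and 0.17 after correction. The small ribosomal RNA mt:srRNA was called lower at -1.03, on 205 and 101 counts, but not under TMM (-0.997) or DESeq2 (-0.97) scaling. After correction mt:ATPase8 was called higher, at 1.73 on 52 and 103 counts. The 17 aminoacyl tRNA synthetases, which are of middling length, had medians of -0.04 and 0.00, and the 12 glycolytic enzymes -0.05 and -0.03.

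The genes with the lowest folds were not ribosomal ones. Dus4, a tRNA dihydrouridine synthase, stood at 19.2, 17.2, 12.7 and 4.03 CPM in DMSO and at 15, 30 and 60 min, a late log2 fold of -1.65 (-1.96 to -1.36), or -1.31 after correction. Pex11c, a peroxisome membrane protein, stood at 11.5, 10.1, 8.49 and 2.84 CPM, a late log2 fold of -1.58 (-1.95 to -1.23), or -1.14 after correction. Saf6, a subunit of the SAGA coactivator, stood at 21.6, 21.3, 14.4 and 5.61 CPM, a late log2 fold of -1.36 (-1.62 to -1.11) that correction left at -1.36. For these genes the 60 min library was the lowest of the 4, and the level at 30 min was already below that at 15 min. The remaining genes of the lowest 12 were CG14074, CG1239, mms4, CG17361, tos, HPS1, CG7101, CG17568 and CG4820, with log2 folds of -1.53 to -1.29, and all but CG1239, CG17361 and CG4820 were past the rule after correction. With gene span removed instead, CG7101 (-0.94) and mms4 (-0.96) were no longer past it either.

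The lower named genes also included tos, mms4 and Rbf2. Tos, the fly exonuclease Exo1, stood at 22.5, 24.2, 16.6 and 6.19 CPM, a late log2 fold of -1.42 (-1.67 to -1.18), or -1.41 after correction. Mms4, a partner of the Mus81 nuclease, stood at 7.31, 8.11, 5.41 and 2.0 CPM, a late log2 fold of -1.44 (-1.88 to -1.01), or -1.01 after correction. The retinoblastoma family repressor Rbf2 stood at 16.4, 19.1, 9.17 and 4.0 CPM, a late log2 fold of -1.20 (-1.51 to -0.89), or -1.27 after correction, the lowest of 366 genes of its length. All 3 were at their highest at 15 min and at their lowest at 60 min. Mus101, the fly TopBP1, was not called before correction and was named for its corrected fold of -1.29, which was -0.96 with gene span removed, with 21.4 CPM at 30 min and 12.8 CPM at 60 min.

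The list of replication licensing and synthesis genes had 0 of 19 members called, and that of p53 and DNA damage genes had 0 of 20 called lower. Over all genes 9.58% were called higher and only 1.3% lower, so lists of this size would hold few lower calls. The replication list had a median log2 fold of -0.21 both before and after correction, with 4 corrected folds positive, against -0.06 and -0.01 over all genes. Mcm10, which helps load the replicative polymerase, stood at 33.1 and 17.9 CPM, a log2 fold of -0.89 (-1.04 to -0.74), and the licensing factor Cdc6 at 17.2 and 9.38 CPM, a log2 fold of -0.88 (-1.09 to -0.67). In the cyclin, Cdk and mitosis list of 29 genes the median was -0.01, CycG and E2f1 were called higher and Rbf2 lower, and after correction Rbf2 alone was called.

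Some genes were named for a low corrected fold alone. The lowest corrected folds were those of bt (projectin, a giant muscle protein), mod(mdg4), mus101, CG34310, Usp47, CG1888 and the cAMP phosphodiesterase dnc, besides Rbf2. The insulator protein gene mod(mdg4) stood at 292 CPM at 30 min and 243 CPM at 60 min, a log2 fold of -0.27 and -1.48 after correction, with 58.1% of its exonic bases shared with another gene. Its annotated transcripts together cover 12432 exonic bases, where the trend was 1.21, so most of the corrected value comes from that length. The deubiquitinase gene Usp47 stood at 133 and 91.4 CPM, a log2 fold of -0.54 (-0.61 to -0.47), or -1.22 after correction. Only 23 genes have over 16000 exonic bases, and there the trend is thin: against the median of its bin bt was at -0.77 rather than -1.49, and dnc at -0.81 rather than -1.21, neither past the rule. With gene span removed bt (-0.74) and CG1888 (-0.85) were not past it.

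Of the Mediator and TFIID genes, 36 in all, skd was called higher at 1.09 and MED22 lower at -1.04, the second not under DESeq2 scaling (-0.975), and after correction neither was called, with skd at -0.12 and MED22 at -0.44. The median was -0.28 before and -0.08 after correction. The 14 immediate-early genes, a list that overlaps others above, had 6 called higher, with a median of 0.86: Ets21C, vri, CrebB, puc, Hr38 and sr. Of the 13 with a length, Ets21C, puc and vri were called after correction, with a median of 0.35. Over all genes 9.58% were called higher before correction and 4.2% after it.

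Gene identifiers that no annotation used here pairs with a length made up a distinct share. Of 667 such identifiers 155 were called higher, or 23.2%, and 5 lower, and their median log2 fold was 0.30. The identifier FBgn0038780 had 45 counts at 30 min and 965 counts at 60 min, a log2 fold of 4.41 (3.98 to 4.88). FBgn0051600 had 12 and 232 counts, a log2 fold of 4.27 (3.43 to 5.24). These identifiers enter the counts before correction and none of the corrected values.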

How the data were processed

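The authors deposited raw read counts per FlyBase gene, 1 file per library. Per the submitters' processing notes, Bowtie, HTSeq and the genome build dm3 were used. The sources used here do not give versions, options, the strand setting or the annotation used, so reads of overlapping and antisense genes cannot be told apart. Of each file's entries 5 name no gene and were left out: reads outside genes made up 14.7 to 16.4% of aligned reads and ambiguous reads 1.13 to 1.38%.

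Counts were scaled by the gene total and compared with exact binomial intervals (scipy 1.17.1). No test was possible with 1 library per condition. Exon lengths come from a later Ensembl annotation (BDGP6), so no coordinates are printed. The length trend was a lowess fit (statsmodels 0.14.6, fraction 0.3). Scripts were tested on simulated data: nearly all changed genes were recovered, while interval coverage, which missed a first bound in 1 of the small groups of changed genes, was then judged over all of them. Alternative scalings used edgeR 4.0.16 (TMM) and DESeq2 1.42.0 size factors in R 4.3.3.

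Names were found for 13524 identifiers in the gene name table and 9 more in RefSeq. Named genes include the 12 highest and 12 lowest folds and the 8 highest and 8 lowest corrected folds not already named. These are protein coding with a symbol and a mean of at least 100 counts. The 10 largest CPM gains and losses, also protein coding with a symbol, had no such minimum. Up to 4 called members per direction of each of 33 gene lists were named too, at any measured count and gene type. Other list members and genes named for an absence of change were picked after their values were seen. The members and lists were chosen with earlier results of these data known. Of 858 list symbols 93 matched no identifier, and a hand table of synonyms was made after the files were seen. One gene called in the EGFR list is not reported here.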

Additional observations from a re-analysis of the deposited data

Results flagged for a closer look

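Reads that aligned outside annotated genes took a larger share in the 60 min library than in any other. The share of aligned reads was 16.43% (16.42 to 16.44, exact 95% binomial interval) at 60 min, against 14.80% (14.79 to 14.81) at 30 min, 14.78% (14.76 to 14.79) at 15 min and 14.67% (14.66 to 14.69) in DMSO. These reads were used in no comparison above. Where these reads lie was not tested.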

How the results depend on the processing

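With 1 library per time, depth sets the counting intervals and nothing sets the error between cultures. Counts of 765 higher and 104 lower genes stayed within 1.5 times these values under TMM (811 and 85), DESeq2 size factors (845 and 72), library sizes that leave out the heat shock list and the 50 most abundant genes (685 and 148), no filter on low counts (929 and 146) and protein-coding genes only (603 and 95). These scalings shifted folds by 0.03, 0.06 and -0.07 on the log2 scale, and under TMM the medians of the shortest and longest bins were -0.60 and 1.03. Larger moves came from a mean count of at least 100 (578 higher, 56 lower), a 1.5-fold rule (1501 and 1091), an interval wholly past 2-fold (539 and 10), and length: 307 and 69 with the exon length trend removed, 340 and 81 with the gene span trend removed and 325 and 64 against the bin median. With exon length removed 2 called genes turned from positive to negative, skd (-0.12) and sgg (-0.14). Of the genes not called, Col4a1 (-0.27), Pxn (-0.34), bt (-1.49) and dnc (-1.21) also turned negative and RpL21 (0.02) positive. Of all other named genes, those just listed included, 84 moved by more than their counting interval and 27 did not. No paired analysis was possible because each condition has 1 library.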

Other observations

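Several genes with few reads, outside the naming rule and picked here after their values were seen, were near absent until the last interval. CG30280 had 0, 3, 4 and 184 counts in DMSO and at 15, 30 and 60 min, a late log2 fold of 5.52 (4.13 to 7.41). Its immediate neighbour in the RefSeq annotation, with 0 annotated genes between them, is CG30281, whose late log2 fold was 2.69 (2.13 to 3.30). The same held for the neprilysin-like pair Nepl13, with 0, 4, 10 and 131 counts and a late log2 fold of 3.70 (2.78 to 4.80), and Nepl14, at 2.99 (2.39 to 3.63), again with 0 genes between them. CG32182 had 0, 3, 5 and 116 counts, a late log2 fold of 4.53 (3.26 to 6.18), and CG8172 had 3, 4, 12 and 132 counts. Long genes had the same course: CG12769 had 2, 1, 1 and 45 counts, CG31213 had 2, 1, 1 and 40 counts and kek6 had 2, 1, 2 and 39 counts, with late log2 folds of 5.48, 5.31 and 4.28. CG30280, Nepl13, CG32182 and CG12769 each ranked 1 among genes of similar length.

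Among transcripts that encode no protein, the spliceosomal snRNA:U12 stood at 1.85 CPM at 30 min and 0.773 CPM at 60 min, a log2 fold of -1.26 (-2.01 to -0.54). This rests on 57 and 24 counts in libraries of polyadenylated RNA. It was the 1 of 5 snRNAs called lower, beside 1 of 7 snoRNAs and 2 of 4 rRNAs, with 0 of these called higher. These calls were made before length correction, where 1.3% of all genes were called lower and 9.58% higher. Those called lower had 99 to 786 exonic bases, and after correction mt:srRNA was at -0.49 and not called. The rRNA 5.8SrRNA:CR40454 had 38 and 19 counts, with 100% of its exonic bases shared with another gene. Of 35 ncRNAs 2 and of 62 pseudogenes 5 were called higher, and 0 lower. In lncRNA:Hsromega, the long heat-responsive RNA with 21710 exonic bases, the late log2 fold was 0.58, and -0.98 relative to the thin trend at that length.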
